A study of Mus musculus with 54 samples.

Results

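Promoters bound by more than 1 KRAB-zinc finger protein (KZFP) were collected from 42 ChIP-seq peak lists, 1 for each KZFP. A promoter was kept when peak summits from 2 or more lists lay within 1000 bp of a start of a protein-coding transcript of the same gene (GRCm39, GENCODE annotation). Zinc finger genes named Zfp, Zscan, Zkscan, Zbtb or Znf, histone genes and ribosomal protein genes were left out. This gave 692 shared promoters among 20796 protein-coding genes, or 3.33%. A further 3264 promoters had summits from a single list, so that 3956 genes, or 19.0%, had a summit from 1 or more lists.

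Each KZFP was over-expressed with an HA tag from a transposon vector in F9 cells, a mouse embryo carcinoma line, and precipitated with an antibody to the tag. Every KZFP had 1 library, with no replicate. The series also held 4 empty vector libraries, 5 mixed inputs (1 per experimental batch) as well as 3 HGTC8 embryonic stem cell libraries not analysed here. The members were chosen by called peaks, that is by a summit in a list past its cutoff on fold enrichment over the input of the batch. Bound means here that a peak was called, and the peaks and their folds are given as description, without a test. Read depth was not used. All lists were filtered against the same empty vector controls, and lists of 1 batch shared an input. Batches 3 and 5 had no empty vector library of their own.

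KZFPs are repressors that bind DNA through an array of C2H2 zinc fingers and recruit the corepressor TRIM28 through the KRAB domain. The amino acids of each finger that contact DNA form its fingerprint, and the fingerprints in order form the fingerprint array, which sets the sequence read by the protein. Most KZFPs are known for binding transposable elements, where they direct histone H3 lysine 9 trimethylation. A CpG-rich promoter, in contrast, is typically open and active in embryonic cells.

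The sequences given first are chosen examples from the shared sites of a close pair of lists. Zfp_MB005 and Zfp_MB016 have different arrays, but the motifs given for them by the study share a stretch of 11 letters, ACGTCCTAGGC. The 8 sequences that follow are from promoters of both lists with the fewest mismatches to that stretch within 100 bp of the Zfp_MB005 summit. Capitals mark the letters equal to the stretch, and each sequence reads 5′ to 3′ on the strand of the match.
Pde4dip: tgctttcgcACGTCCTAGGCaaagatgtc
Sun1: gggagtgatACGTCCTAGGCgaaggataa
Ppp1r15b: gggaaggagACGTCCTAGGCcgtgtgaga
Plekha1: tctagttccACGTCCTAaGCcgagcctcg
Crot: gctctggtggCGTCCTAGGCtgcagaccc
Gm56450: tctctcaggACGcCCTAaGCtgtagaaac
Ttc17: ggagtgtgcgCGTCCcAGGCcggtgacag
Hsp90aa1: ctcatatctACGcCCcAGGCcggggatgc

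The Pde4dip stretch lies at chr3:97674792-97674820 (minus strand, coding exon) and that of Sun1 at chr5:139197228-139197256 (plus strand, intron). Ppp1r15b has it at chr1:133059218-133059246 (minus strand, untranslated exon) and Plekha1 at chr7:130467354-130467382 (plus strand, outside the gene). The Crot stretch is at chr5:9047304-9047332 (plus strand, untranslated exon), that of Gm56450 at chr2:136733415-136733443 (plus strand, outside the gene), that of Ttc17 at chr2:94236445-94236473 (minus strand, intron) and that of Hsp90aa1 at chr12:110662508-110662536 (minus strand, untranslated exon). Pde4dip encodes myomegalin, a centrosomal and Golgi protein, Sun1 a protein of the inner nuclear membrane, Ppp1r15b a subunit that directs dephosphorylation of eIF2 alpha, and Hsp90aa1 the inducible HSP90 chaperone.

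The number of lists per promoter fell off steeply. Of the 692 shared promoters, 575 had 2 lists, 87 had 3, 13 had 4 and 17 had 5 or more, up to 13 at Polrmt. In 677 promoters the lists carried at least 2 different arrays, and in 109 at least 3. The other 15 were shared only by KZFPs with an identical array. In all, the 42 KZFPs held 32 distinct arrays. The 692 genes lay at 635 loci, because 110 of them shared their summits with a neighbouring or overlapping gene at 53 loci. By batch, 612 promoters had lists from 2 or more batches and 80 from a single batch. Of the 692, 453 had 2 lists from the batches with an empty vector library, and 25 had lists from batches 3 and 5 alone. The fold cutoff of the deposited list was 5 for 10 lists and 10 for the other 32, and 21 promoters had lists with the cutoff of 5 alone.

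**Figure D1:**
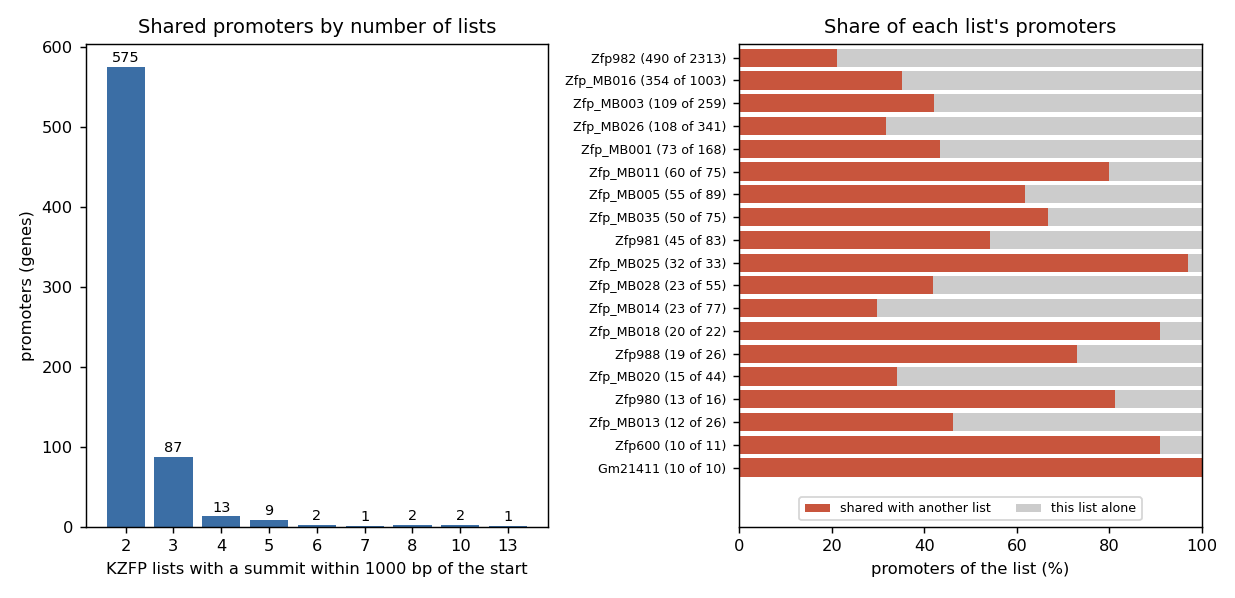
Left, bars give the number of shared promoters (vertical axis) by the number of KZFP lists with a summit within 1000 bp of the start. Right, for the 19 lists with 10 or more shared promoters, the red part of each bar is the percentage of the list's promoters that it shared with another list and the grey part the percentage it held alone. Most shared promoters, 575 of 692, had 2 lists, and Zfp982 shared 490 of 2313 promoters while Gm21411 shared all 10.

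A pair of lists accounted for most of the members. Zfp982 had a summit at 490 of the 692 shared promoters and Zfp_MB016 at 354. Together they covered 597 promoters, and 95 had neither. Zfp982 marked 2313 promoters, 11.1% of all genes, and shared 21.2% of them. Zfp_MB016 marked 1003, 4.82% of all genes, and shared 35.3%. Zfp_MB003 shared 109 of 259 promoters (1.25% of all genes), Zfp_MB026 108 of 341 (1.64%) and Zfp_MB001 73 of 168 (0.808%). A rough background for the shared part is the 19.0% of all genes with a summit from 1 or more lists. The 21.2% of Zfp982 was near it, and the other lists named here were above it. That background counts 1823 promoters that Zfp982 held alone. Without the list of Zfp982, 285 promoters remained shared, and without that of Zfp_MB016, 396.

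Of the 17 lists with 10 to 89 promoters, 11 shared more than 50% of them and 6 less, with a range of 20% to 100%. Zfp_MB025 shared 32 of 33 promoters (0.159% of all genes), Zfp_MB018 20 of 22 (0.106%), Zfp600 10 of 11 (0.0529%), Zfp980 13 of 16 (0.0769%), and Gm21411 all 10 (0.0481%). The exact 95% binomial interval of the shared part was 69.2% to 100% for Gm21411, which covers counting error only. Zfp_MB011 shared 60 of 75 (0.361%), Zfp988 19 of 26 (0.125%), Zfp_MB035 50 of 75 (0.361%), Zfp_MB005 55 of 89 (0.428%), Zfp6002 9 of 15 (0.0721%) and Zfp981 45 of 83 (0.399%). The 6 lists under 50% were Zfp_MB013 with 12 of 26 (0.125%), Zfp_MB028 with 23 of 55 (0.264%), Zfp_MB020 with 15 of 44 (0.212%), Zfp_MB014 with 23 of 77 (0.370%), Zfp_MB023 with 6 of 27 (0.130%) and Zfp_MB036 with 2 of 10 (0.0481%). The percentages in brackets give the size of each list and are no background for the shared part. The rough background is again the 19.0% of all genes with a summit from 1 or more lists. Zfp_MB036 and Zfp_MB023 were near it, with exact 95% binomial intervals that cover it, and the other lists of the 17 were above it. That background counts the list itself and was not matched for CpG content. Of the 42 lists, 34 occurred at a shared promoter, and 7 had no promoter summit.

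The lists met in 144 exact combinations, 88 of them seen at 1 promoter. Zfp982 with Zfp_MB016 alone made up 201 promoters. The next were Zfp982 with Zfp_MB026 (51), Zfp982 with Zfp_MB003 (43), Zfp982 with Zfp_MB001 (33), Zfp_MB005 with Zfp_MB016 (29) and Zfp_MB016 with Zfp_MB026 (21). Counting also promoters with further lists, Zfp982 and Zfp_MB016 shared 247 promoters, which were 10.7% of those of Zfp982 and 24.6% of those of Zfp_MB016. Over the 12 lists that shared 10 or more promoters with Zfp982, it was found at 15.6% (Zfp_MB014) to 50.0% (Zfp_MB018) of the promoters of the other list. It was at 25.6% of those of Zfp_MB001, 23.2% of those of Zfp_MB003, 19.6% of those of Zfp_MB026, 34.7% of those of Zfp_MB035 and 33.3% of those of Zfp_MB011. All 12 shares were above the 11.1% of all genes with a Zfp982 summit. Of the 12, 10 were above and 2 below its 23% among the 7319 genes with a ratio of observed to expected CpG of at least 0.6 over 1000 bp on each side of a start. Most of those above it were near it, namely Zfp_MB003, Zfp_MB005 (23.6%), Zfp_MB028 (23.6%), Zfp_MB016, Zfp981 (25.3%) and Zfp_MB001. The shares further above were those of Zfp_MB011, Zfp_MB035, Zfp_MB025 (36.4%) and Zfp_MB018.

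The lists at a gene did not always share 1 site. For each pair of lists at a promoter, the distance between their closest summits was taken. Over 1246 pairs with different arrays the median was 127 bp (95% interval of the median 109 to 152 bp, quartiles 22 and 497 bp), and 456 pairs (36.6%) lay within 50 bp. Over the 33 pairs with an identical array the median was 39 bp (11 to 70 bp), and 18 (54.5%) lay within 50 bp. Both intervals treat the pairs as independent. A promoter with many lists gives many pairs, so the intervals are too narrow and cover counting error only. At the other end, 99 pairs lay more than 2000 bp apart, at different transcription starts of the same gene. In 206 of the 692 promoters the closest 2 lists had summits within 50 bp and in 367 within 200 bp, whereas in 67 even the closest were over 2000 bp apart.

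The distance differed between pairs, also for the same list. Zfp988 and Zfp_MB001 shared 17 promoters with a median distance of 5 bp and a maximum of 17 bp. These 17 were 65.4% of the promoters of Zfp988 and 10.1% of those of Zfp_MB001, and the arrays and the batches of both differ. Zfp_MB005 and Zfp_MB016 shared 42 promoters, 47.2% of those of Zfp_MB005, with a median of 10 bp and 38 of them within 50 bp. Gm21411 and Zfp_MB028, which have an identical array, shared 10 promoters with a median of 3 bp. Zfp_MB001, close to Zfp988, lay a median of 1083.5 bp from Zfp_MB016 over 14 promoters, and Zfp_MB016, close to Zfp_MB005, a median of 382 bp from Zfp_MB026 over 36. Zfp_MB003 and Zfp_MB011, also of identical array, were looser, with a median of 69.5 bp over 20 promoters. Among pairs with Zfp982 the distances were long. The median was 213 bp with Zfp_MB016, 160 bp with Zfp_MB003, 587 bp with Zfp_MB001 and 643 bp with Zfp_MB026. Over all 618 pairs that included Zfp982 it was 283 bp with 19.1% within 50 bp, against 40.5 bp and 53.8% over the other 628 pairs with different arrays. Of these 628 pairs, 162 were among 6 lists described further on as a set (median 20 bp, 79.6% within 50 bp). The other 466 had a median of 87 bp with 44.8% within 50 bp. Promoters with many lists count repeatedly in these pairs, and 5 promoters held all 6 lists of that set.

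**Figure D2:**
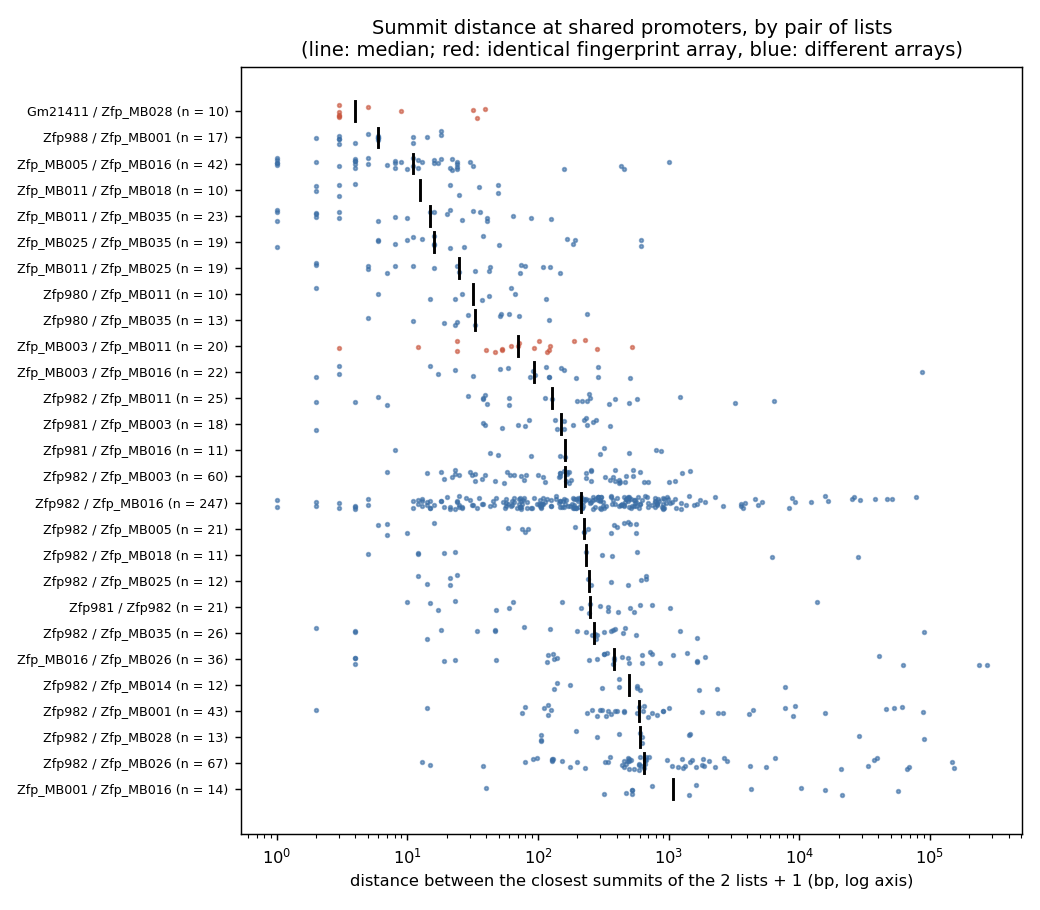
Each point is a shared promoter, placed by the distance between the closest summits of the 2 lists plus 1 (bp, log axis), for the 27 pairs of lists with 10 or more promoters. Black lines are medians, red marks pairs with an identical fingerprint array and blue pairs with different arrays. Pairs such as Zfp988 with Zfp_MB001 sit below 20 bp, while Zfp982 with Zfp_MB026 is spread around a median of 643 bp.

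The summits of shared promoters were placed around the start much like those of single-list promoters. Over the 1576 summits at shared promoters the median position was 43.5 bp downstream of the nearest start (positions are in bp from the start, negative upstream), 41.4% lay upstream and 62.2% lay within 250 bp. Over the 3264 summits at single-list promoters the median was 37.5 bp downstream, with 40.4% upstream and 66.2% within 250 bp. Of the summits at shared promoters, 44.8% lay in an untranslated exon, 23.7% in an intron, 21.7% outside a gene and 9.84% in a coding exon. The limit of 1000 bp left Eapp and Pde4d just inside, with second lists at -983 and 979 bp. Arih1 and Bdkrb1 lay just outside, with second lists at 1016 and 1021 bp.

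At Pde4dip, first among the promoters of Zfp_MB005 and Zfp_MB016 alone by the lower of both folds, the fold enrichment was 103 for Zfp_MB005 and 121 for Zfp_MB016, with summits 11 bp apart at 518 and 507 bp downstream of the start. At Pfn2, which encodes the actin-binding protein profilin 2, both summits fell on the same base, at -226 bp, with folds of 38.8 for Zfp_MB005 and 372 for Zfp_MB016. Both promoters thus carried strong peaks of both proteins at 1 site.

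The 11-letter stretch was then searched on both strands in 200 bp windows, allowing up to 2 mismatches. It was found at 19 of the 38 distinct Zfp_MB005 summits of promoters shared with Zfp_MB016, or 50.0%, of which 3 were complete. It was also found at 120 of the 286 Zfp_MB016 summits of shared promoters without Zfp_MB005, or 42%, and at 267 of the 587 Zfp_MB016 summits of single-list promoters, or 45.5%. The background was 4.05% of 20972 windows centred on canonical starts, and 4.70% of the 7346 windows with a CpG ratio of at least 0.6. The matches lay a median of 12, 10.5 and 9 bp from the summit in these groups of summits, in that order, against 50 bp from the centre of the background windows. Where found, the mostly inexact copies thus lay near the summits of Zfp_MB016 promoters, but most Zfp_MB016 windows had no match. The shares differed little between shared and single-list promoters. The stretch was taken from motifs that the study derived from peaks of these same lists. Its excess over the background and its place near the summits are therefore partly built in. At Zfp982 summits the stretch was found in 17.1% of 228 windows of promoters with Zfp_MB016, 8.07% of 223 windows of other shared promoters and 5.6% of 1679 windows of single-list promoters.

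The full motif of a list was rare at its promoter summits. For 31 lists with a motif given by the study, which was derived from peaks of the same lists, the complete motif occurred within 100 bp of 9 of 1413 summits at shared promoters (0.637%). It occurred at 13 of 2984 summits at single-list promoters (0.436%) and at 6924 of the 19723 other peaks of the same lists (35.1%, with a range of 2.71% to 72.8% between lists). For 24 of the 31 lists no summit at a shared promoter had it. With up to 2 mismatches allowed, the shares were 7.15% at shared promoters, 8.75% at single-list promoters and 49.2% at other peaks. Summed over lists, the shares at shared and at single-list promoters were thus close to each other and both far under those at other peaks. Zfp982 held 450 of the 1413 and 1679 of the 2984 summits in these sums. Single lists differed, and Zfp_MB015 had 4 of 6 (66.7%) at shared promoters against 31.2% at its other peaks.

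Zfp982 and Zfp_MB016 held most of the inexact matches, followed by Zfp981 and Zfp_MB020. For Zfp_MB016, 32 of 324 summits at shared promoters (9.88%) had the motif with up to 2 mismatches, against 11.1% at single-list promoters and 0.639% of all promoter windows. For Zfp981 it was 7 of 44 (15.9%), against 8.11% at single-list promoters and 4.13% of all promoter windows, and 22.0% at its other peaks. For Zfp_MB020 it was 5 of 14 (35.7%), against 39.3% at single-list promoters and 0.601% of all promoter windows, and 61.1% at its other peaks. For Zfp982 it was 43 of 450 (9.56%), against 10.3% at single-list promoters and 7.70% of all promoter windows, and 54.5% at its other peaks. Zfp_MB026 had 0 of 102, which allows a share of up to 2.94%, against 28.0% at its other peaks. Zfp_MB011 had 0 of 54, which allows up to 5.56%, against 12.8%, and Zfp_MB035 0 of 46, which allows up to 6.52%, against 35.6%. For other lists the contrast was small. Zfp_MB001 had 0 of 68, which allows up to 4.41%, against 5.32%, and Zfp988 0 of 18, which allows up to 16.7%, against 7.01%. These limits cover counting error only.

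**Figure D3:**
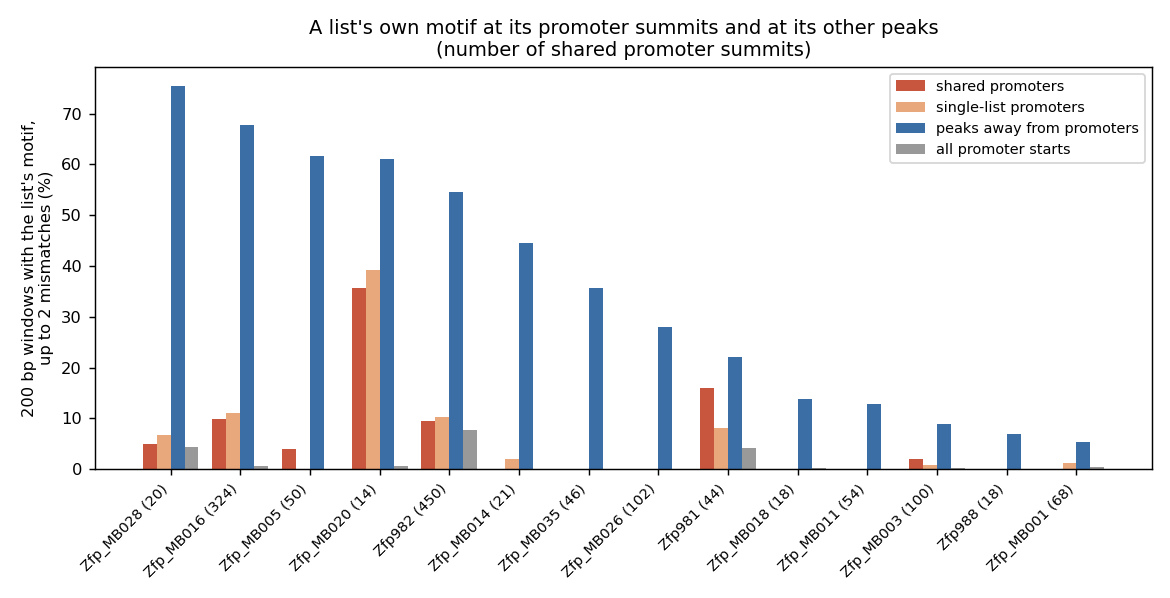
Bars give the percentage of 200 bp windows that hold the list's own motif with up to 2 mismatches (vertical axis) for 14 lists with 14 or more distinct summits at shared promoters, in brackets. Red is shared promoters, orange single-list promoters, blue the list's peaks away from promoters and grey all canonical starts. The blue bars are the highest in every list shown. The red bar is at 0 for Zfp988, Zfp_MB001, Zfp_MB011, Zfp_MB014, Zfp_MB018, Zfp_MB026 and Zfp_MB035.

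The fold enrichment did not split promoter peaks from other peaks in this way for Zfp982, Zfp_MB016 and Zfp_MB026. The median fold of Zfp982 was 14.7 at shared promoters, 15.5 at single-list promoters and 16.9 at its other peaks. For Zfp_MB016 these values were 16.6, 15.8 and 17.2. For Zfp_MB026 they were 17.6, 16.2 and 17.1. Other lists differed in either direction. For Zfp_MB005 the values were 20.9, 16.4 and 14.7. Zfp_MB028 had 20.8 at shared promoters and 13.7 at other peaks, and Rex2 11.1 and 14.6, with 6 summits at shared promoters.

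For the tight pair of Zfp988 and Zfp_MB001 the most over-represented 8-letter word near the Zfp988 summit was AATCCTCC, a word picked after the counts were seen. It was found within 50 bp of 5 of 16 distinct summits, against 0.367% of all promoter windows of the same length (both strands). These 5 promoters hold it, shown on the strand of the word with the word in capitals.
Efcab12: catctacaggAATCCTCCggctccgggc
Upf1: aattcgggggAATCCTCCtgcctcaaag
Nfat5: ttggagggggAATCCTCCatccacatac
Pcgf1: cctcgctgtcAATCCTCCcctcctcctt
Nim1k: catacaccagAATCCTCCcctagagaaa

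They lie at chr6:115815301-115815328 for Efcab12 (minus strand, untranslated exon), chr8:70806635-70806662 for Upf1 (plus strand, outside the gene), chr8:108065759-108065786 for Nfat5 (minus strand, coding exon), chr6:83054654-83054681 for Pcgf1 (plus strand, outside the gene) and chr13:120216701-120216728 for Nim1k (minus strand, intron). Upf1 encodes the RNA helicase of nonsense-mediated decay, Nfat5 a transcription factor of the response to high salt, and Pcgf1 a subunit of a variant Polycomb repressive complex. Upf1 had 6 lists at separate sites: Zfp988 (21.7-fold) and Zfp_MB001 (87.2-fold) at -556 and -558 bp, and Zfp_MB003, Zfp_MB011, Zfp_MB025 and Zfp_MB035 between 163 and 447 bp downstream with folds of 6.27 to 10.2.

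At promoters of Zfp982 with Zfp_MB016, the commonest pair, the leading word was CCGCCGCC, also picked after the counts. It was found within 50 bp of the Zfp982 summit in 51 of 228 windows (22.4%), against 4.05% of all promoter windows and 9.03% of those with a CpG ratio of at least 0.6. It was no more frequent at shared promoters, with 20.4% of 450 Zfp982 summits, than at single-list promoters of Zfp982, with 21.7% of 1679. At Zfp_MB016 summits it was found in 6.79% of 324 windows at shared promoters and 3.75% of 587 at single-list promoters. The 3 examples are the promoters of the pair with the highest lowest fold whose window of 101 bp around the Zfp982 summit held the word and no exon. They are written on the strand of the gene with the word or its reverse complement in capitals.
Ankrd28: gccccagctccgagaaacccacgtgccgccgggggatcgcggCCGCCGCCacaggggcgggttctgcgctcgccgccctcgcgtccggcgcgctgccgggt
Gnl3: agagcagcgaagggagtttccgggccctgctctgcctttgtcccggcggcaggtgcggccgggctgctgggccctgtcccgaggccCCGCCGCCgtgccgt
Nbeal1: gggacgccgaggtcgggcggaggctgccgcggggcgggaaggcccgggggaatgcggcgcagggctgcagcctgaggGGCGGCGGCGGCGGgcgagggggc

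The Ankrd28 window is chr14:31552026-31552126 (minus strand, intron), that of Gnl3 chr14:30741411-30741511 (minus strand, outside the gene) and that of Nbeal1 chr1:60219850-60219950 (plus strand, intron). Ankrd28 encodes a regulatory subunit of protein phosphatase 6, and Gnl3 nucleostemin, a nucleolar GTP-binding protein of dividing cells. The strongest promoters of this pair alone, by the lower fold, were Kdm2b, a demethylase that binds CpG islands, and BC005537. At BC005537 the Zfp982 (56.4-fold) and Zfp_MB016 (41.9-fold) summits were 22 bp apart, at 186 and 208 bp downstream. At Kdm2b the Zfp982 summit (58.8-fold) lay 10 bp downstream of a start and the Zfp_MB016 summit (43.9-fold) at -598 bp of another, with 37983 bp between the closest summits of the lists.

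The other frequent pairs had the same range of layouts. Brd2, which encodes a BET bromodomain protein, had Zfp982 (59.4-fold) and Zfp_MB026 (150-fold) at sites 2801 bp apart. ENSMUSG00000144258, a gene without a symbol, had them 1293 bp apart with folds of 31.6 for Zfp982 and 29.8 for Zfp_MB026. Ado, which encodes a cysteamine dioxygenase, had Zfp982 (54.9-fold) and Zfp_MB001 (29.3-fold) 1 bp apart at -348 and -349 bp. Smad5, a mediator of BMP signals, had them 635 bp apart with folds of 19.6 and 42.8. Pim3, a serine/threonine kinase gene, had Zfp982 (86.7-fold) and Zfp_MB003 (8.04-fold) 38 bp apart, and Ccdc59 had them 254 bp apart with folds of 35.5 and 7.21.

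A set of 6 lists with 11 to 75 promoters each, picked after their counts were seen, met repeatedly. Zfp600, Zfp980, Zfp_MB011, Zfp_MB018, Zfp_MB025 and Zfp_MB035 have 6 different arrays and came from 3 batches. The lists of Zfp600, Zfp980 and Zfp_MB011 had the fold cutoff of 5, and those of Zfp_MB018, Zfp_MB025 and Zfp_MB035 the cutoff of 10. Without all lists of cutoff 5, Gm45844 and Inpp5f went from 10 to 5 lists and Hmgxb4 from 8 to 6. They marked 149 promoters in all, of which 40 had 2 or more of them, 23 had 3 or more and 5 had all 6. Over the 40 promoters the summits of these lists spanned a median of 47.5 bp, within 50 bp at 23 promoters and within 200 bp at 35. They lay mostly downstream, with 38 of 123 summits (30.9%) upstream and a median of 208 bp downstream. Their folds were 5.14 to 31.4 with a median of 10.7. Zfp982 was found at 14 of the 40 and Zfp_MB016 at 4. The motifs of these lists gave 1 match in all with up to 2 mismatches at the shared promoters, at a Zfp980 summit, and no motif of Zfp600 or Zfp_MB025 was used here.

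Polrmt, which encodes the mitochondrial RNA polymerase, had 13 lists from 13 arrays and 4 batches within 153 bp of each other. The folds were 23.6 for Zfp_MB016, 21.8 for Zfp_MB035, 19.5 for Zfp982, 17.5 for Zfp_MB037, 17.3 for Zfp_MB025, 16.8 for Zfp_MB015, 15.9 for Zfp_MB018, 11.9 for Zfp980, 11.1 for Zfp_MB026, 10.7 for Rex2, 9.0 for Zfp_MB011, 6.68 for Zfp981 and 6.62 for Zfp600. The lists of Zfp980, Zfp_MB011, Zfp981 and Zfp600 were deposited with the cutoff of 5. Zfp_MB016 gave the highest fold, and 12 of the 13 summits lay between -56 and 6 bp of the start, with Rex2 at -147 bp. That start is not the canonical one of Polrmt, and with 1 canonical start per gene Polrmt had 0 lists.

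Gm45844, a predicted gene, had 10 lists with summits within 6 bp of each other, 202 to 208 bp downstream of the start. The folds were 17.4 for Zfp_MB035, 16.6 for Zfp_MB021, 12.3 for Zfp_MB025, 11.5 for Rex2, 11.1 for Zfp_MB018, 10.9 for Zfp_MB011, 8.03 for Zfp_MB003, 7.68 for Zfp600, 6.64 for Zfp980 and 5.98 for Zfp981. These modest folds came with a −log10 q of 42.2 to 437, against 7.1 to 137 at Polrmt where the folds reached higher. The intronic sequence under the summits is a run of short pyrimidine repeats, written here on the strand of the gene with the bases called as summits in capitals. The part of this repeat in the calls was not tested.
Gm45844: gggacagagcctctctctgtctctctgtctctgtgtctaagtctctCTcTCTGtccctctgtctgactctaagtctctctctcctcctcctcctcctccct

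It lies at chr7:7280975-7281075 on the minus strand. Inpp5f, which encodes a phosphoinositide phosphatase, had 10 lists, 9 of them with summits in the intronic window at chr7:128289671-128289771 on the plus strand, and Zfp_MB003 further downstream. Its folds were 5.51 to 20.1. Inpp5f had 0 lists with 1 canonical start per gene and 0 within 250 bp of a start. Hmgxb4, which encodes an HMG box protein, had 8 lists with folds of 7.80 to 38.8, and 6 of their summits lay in the intronic window at chr8:75720480-75720580 on the plus strand. The CpG ratio of the promoter was 0.762 at Inpp5f and 0.932 at Hmgxb4, while that of Gm45844 was 0.597. The summit bases, in capitals, are spread over both windows.
Inpp5f: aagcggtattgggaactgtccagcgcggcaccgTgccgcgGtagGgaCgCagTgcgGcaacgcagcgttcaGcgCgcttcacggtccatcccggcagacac
Hmgxb4: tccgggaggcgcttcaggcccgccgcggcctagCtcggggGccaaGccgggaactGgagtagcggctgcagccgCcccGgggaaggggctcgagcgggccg

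The remaining promoters with 5 or more lists ranged from tight clusters to separate sites. Selenot, which encodes a selenoprotein of the endoplasmic reticulum, had 8 lists within 115 bp. Tlk2, a kinase acting on a histone chaperone, had 7, with 6 of them within 49 bp and Zfp982 upstream. Eef1a1, the translation elongation factor, had 6 spread over 692 bp, with Zfp_MB016 the highest at 47.2-fold. Ino80d, a subunit of the INO80 chromatin remodeller, had 5 within 71 bp, and Kdm3b, a demethylase of histone H3 lysine 9, had the same 5 lists (Zfp980, Zfp982, Zfp_MB011, Zfp_MB025 and Zfp_MB035) within 285 bp. Chac1, a glutathione-degrading enzyme, had 5 within 73 bp, and Bmp8a, Secisbp2l and Actb had 5 within 141, 115 and 1762 bp. Below these came Nbeal2, Slc6a6 and Zc3h7b with 4 lists each. At Slc6a6, the taurine transporter gene, Zfp_MB016 (132-fold) and Zfp982 (11.1-fold) lay 12 bp apart, and Zfp_MB001 (57.4-fold) and Zfp986 (11-fold) lay at other starts.

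**Figure D4:**
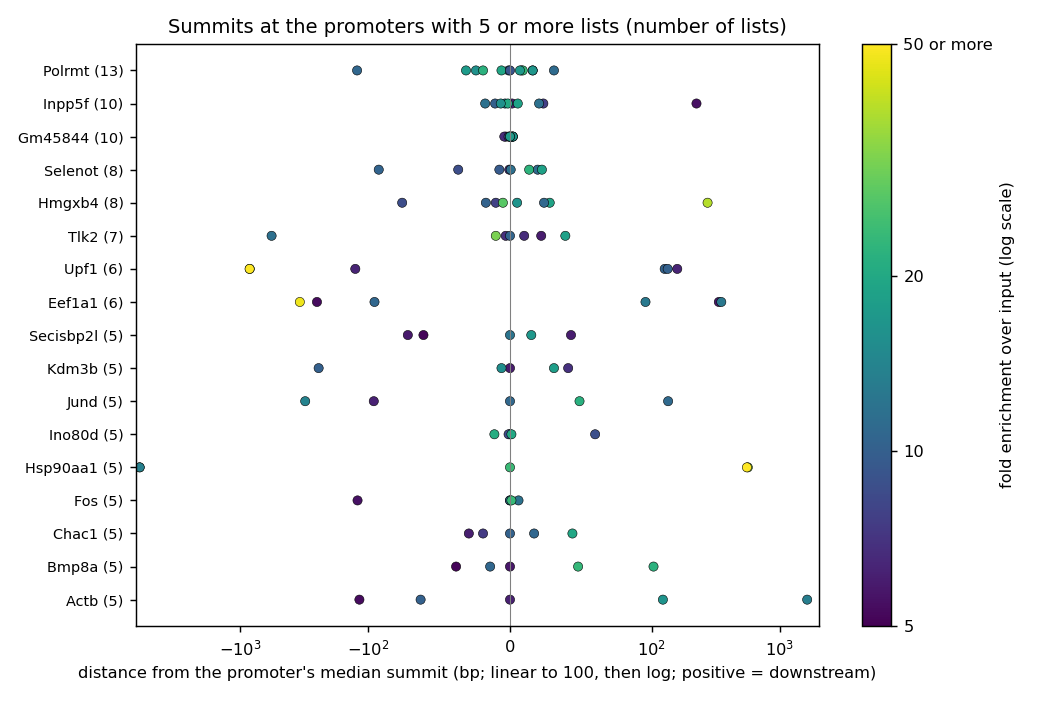
Each row is 1 of the 17 promoters with 5 or more lists, with the number of lists in brackets, and each point is the summit of 1 list. The horizontal axis is the distance from the promoter's median summit (bp, linear to 100 and then log, positive downstream) and the colour is the fold enrichment on a log scale. The Gm45844 summits stack within 6 bp, while those of Hsp90aa1 fall in separate sites spanning 6729 bp.

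Among 12 gene lists, the immediate early and stress response genes had the highest share of shared promoters, 10 of 43 (23.3%, against 3.33% of all genes), with 2 of the 10 being gene models of the same symbol, Ddit3. The gene lists were chosen with earlier results of these data known, so their shares and their order are description only. The 10 were Atf4, Ddit3 (2 models), Fos, Hsp90aa1, Hsp90ab1, Hspa5, Ier2, Jund and Trib3. These are genes known to be induced by stress or growth factors. At Fos, a subunit of AP-1, Zfp_MB025 (23.6-fold), Zfp6001 (11.9-fold), Zfp_MB011 (11.2-fold) and Zfp600 (5.27-fold) had summits within 6 bp of each other, 297 to 303 bp downstream, and Zfp_MB003 (5.52-fold) lay at 176 bp. At Jund, another AP-1 subunit, Zfp_MB025 (21.6-fold), Zfp982 (14-fold), Zfp6003 (10.9-fold), Zfp6001 (10.7-fold) and Zfp_MB011 (6.19-fold) lay in the coding exon, 113 to 558 bp downstream. At Hsp90aa1, Zfp_MB016 (205-fold) and Zfp_MB005 (31.9-fold) lay 9 bp apart at 1 start, Zfp982 (23.9-fold) lay at -203 bp of a second start, and Zfp6002 (87.6-fold) and Zfp_MB018 (13.5-fold) lay 21 bp apart at a further start.

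Genes of KZFP corepressors and heterochromatin had 6 of 38 shared promoters (15.8%): Atrx, Cbx3, Chd3, Hdac2, Resf1 and Tasor. Resf1, a factor known for silencing of endogenous retroviruses, had Zfp_MB026 (31.9-fold), Zfp_MB005 (15.7-fold) and Zfp982 (15.4-fold) within 180 bp. Hdac2, a histone deacetylase, had Zfp_MB018 (11.1-fold), Zfp982 (10.3-fold) and Zfp981 (5.08-fold) within 22 bp. Pluripotency and germline genes had 4 of 30 (13.3%), namely Klf2, Klf4, Sox2 and Tet1, each with 2 lists. Chromatin remodelling and modification genes had 15 of 159 (9.43%), including Kmt2a, a methyltransferase of histone H3 lysine 4, with 4 lists within 126 bp.

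The other lists had smaller shares. RNA splicing and processing had 17 of 248 (6.85%), ubiquitin and proteasome 28 of 419 (6.68%), general transcription machinery 9 of 141 (6.38%), translation factors and tRNA synthetases 8 of 137 (5.84%) and transcription factors outside the zinc finger genes 16 of 278 (5.76%). Cell cycle and DNA replication had 9 of 159 (5.66%), the mitochondrial respiratory chain 6 of 119 (5.04%) and the TLK, CK1, CK2, DYRK and CLK kinases 1 of 25 (4.00%). The members with 3 or more KZFP lists were Rbm33 and U2af1 in splicing, Usp3, Fbxo30 and Rnf170 in ubiquitin, Gtf3c6 and Gtf2a1 beside Polrmt in transcription, Eif4a2 beside Eef1a1 in translation, Sp1 beside Hmgxb4 among transcription factors, and Ndufa13 in the respiratory chain. Cdc42bpa, a kinase of the cytoskeleton, and Rb1cc1, a factor of autophagy, entered the cell cycle list by their names. All 12 shares were above the 3.33% of all genes, and 5 of the 12 were above the 6.83% of genes with a CpG ratio of at least 0.6. CpG content was not matched in these counts, and its part in them was not tested. Of the 13477 genes with a lower ratio, 1.42% had a shared promoter.

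CpG content, which the choice of members did not use, was compared within each list. The ratio of observed to expected CpG was computed over 1000 bp on each side of the start nearest the summit, and the median of the list's shared promoters was set against that of its single-list promoters. Over the 21 lists with at least 3 of both, the mean of the medians was 0.667 at shared and 0.589 at single-list promoters, a difference of 0.0782 ± 0.151 (SD over lists), higher in shared promoters in 15 of 21 lists (two-sided permutation test flipping signs over lists, p = 0.0134). The widest gap was that of Zfp_MB012, with 0.803 at only 3 shared promoters (2 distinct summits) and 0.226 at 5 single-list promoters. With lists of at least 5 promoters of both kinds the difference was 0.0744 (permutation p = 0.00539). Lists share promoters and so are not independent, which makes this p too small. Without the list of Zfp982 the difference was 0.0294 and p = 0.228 over 20 lists (permutation). It was -0.0014 within batch 4 (10 lists, permutation p = 0.973) and 0.0284 within batch 3 (5 lists, exact p = 0.812). The call was thus lost without Zfp982. The 5 lists of batch 3 cannot give an exact p under 0.0625, so that value says nothing on whether the difference holds there. The median over all shared promoters was 0.709, against 0.662 over single-list promoters and 0.488 over all genes. Zfp982 itself marked 23% of genes with a ratio of at least 0.6 and 4.67% of those below it, and Zfp_MB016 8.16% and 3.01%.

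**Figure D5:**
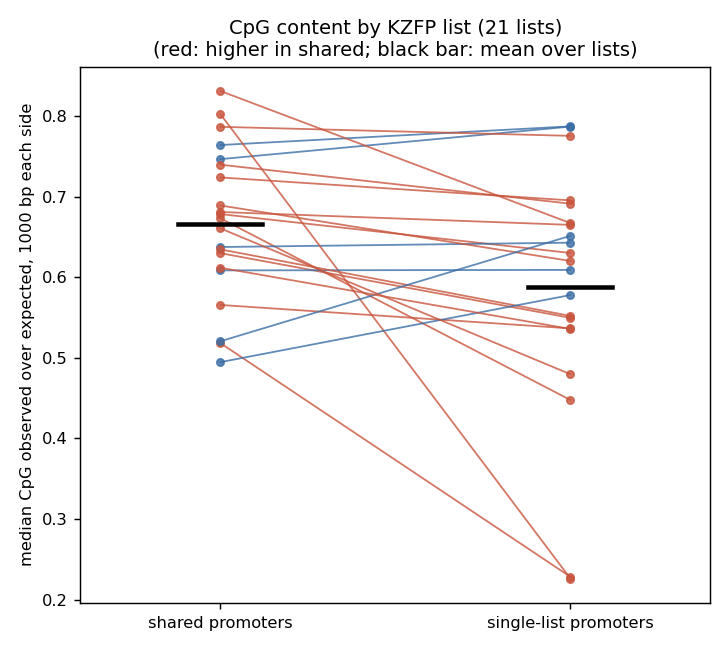
Each line is 1 of the 21 KZFP lists with at least 3 shared and 3 single-list promoters. The vertical axis is the median ratio of observed to expected CpG over 1000 bp on each side of the start, shared promoters on the left and single-list promoters on the right. Red lines, 15 of 21, are higher in shared promoters, and black bars are the means over lists, 0.667 for shared and 0.589 for single-list promoters.

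Similarity to other bound loci was counted last. Of the 1576 summits at shared promoters, 44 (2.79%) had a 200 bp window similar to that of a peak of any list elsewhere in the genome (at least 100 aligned bp, 80% identity or more, over 2000 bp away). Both summits of the pair had such a match in 68 of 474 pairs of summits within 50 bp (14.3%) and in 4 of 805 pairs further apart (0.497%). Only 21 of the 692 promoters had any summit with such a match. A promoter with many lists gives many close pairs, so such promoters count repeatedly in the 14.3%. Gm45844, with 10 lists within 6 bp on a short repeat, was among the 21. The share was not computed without it or once per promoter. The 14.3% therefore does not describe close pairs in general. By pair of lists, both summits had a similar window elsewhere at 3 of 6 promoters of Zfp600 with Zfp_MB018, 4 of 10 of Zfp_MB011 with Zfp_MB018 and 3 of 9 of Zfp600 with Zfp_MB011. Gm45844 is among the promoters of each of these pairs. The count was 1 of 42 for Zfp_MB005 with Zfp_MB016 and 0 of 17 for Zfp988 with Zfp_MB001, which allows up to 17.6%.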

How the data were processed

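Reads of the 42 KZFP libraries were aligned to GRCm39 with BWA by the authors, who called peaks with MACS2 2.2.7.1 against the mixed input of the batch and removed peaks that touched a peak of an empty vector control. SAMtools 1.19 and deepTools 3.5.4 are also named in the submitters' processing notes. The deposited peak lists give a fold enrichment ratio, filtered at 5 or 10, the −log10 q value, and the summit position. The lists hold 21 to 6183 peaks. Read depth was not used.

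Of all peaks, 24975 on chromosomes were used and 37 on scaffolds left out. Where a list had several summits at a gene, the one of highest fold was described, and the closest summits were taken for distances. Similar windows were found with blastn 2.17.0+. The permutation test used 100000 draws. It was tried on simulated independent differences, which does not show how it behaves for lists that share promoters. The named genes are the 20 promoters with most arrays, the 2 with the highest lower fold in each of the 5 commonest combinations, members of the gene lists with 3 or more lists (at most 3 a list), and the promoters next to the distance limit. Promoters whose sequences are printed, and other gene list members, are named besides. Members, lists and rules were chosen with earlier results of these data known. Alternatives varied the distance, the starts, the fold cutoff, the lists and the batches.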

Additional observations from a re-analysis of the deposited data

How the results depend on the processing

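The count of shared promoters (692, 677 with different arrays) stayed within 1.5 times with a limit of 500 bp, other sets of starts, a fold of at least 10 or 1 promoter per locus. It was 331 (324) within 250 bp, 195 (190) at a fold of at least 15, 396 (380) without Zfp_MB016, 100 (92) in batch 4 only, 49 (32) in batch 3 only and 453 (448) without batches 3 and 5. Alternatives added after seeing the data gave 285 (265) without Zfp982 and 367 (350) with summits of 2 lists within 200 bp. The median distance of 127 bp became 92.0 bp within 500 bp, 64.5 bp within 250 bp, 153 bp with starts of every transcript, 198 bp at a fold of at least 10, 214 bp at a fold of at least 15, 102 bp without Zfp_MB016, 217 bp without lists of cutoff 5, 93.0 bp in batch 4 only, 250 bp without batches 3 and 5, and 40.5 bp without Zfp982. The CpG difference of 0.0782 lost its call within 250 bp (0.0478, permutation p = 0.0553), with starts of every transcript (0.0490, p = 0.194), in 250 bp windows (0.0604, p = 0.213), without batches 3 and 5 (0.0330, p = 0.354) and without Zfp982 (0.0294), and turned to -0.0014 in batch 4 only. Batch 3 alone gave 0.0284 over 5 lists, where the smallest exact p is 0.0625. It kept its call with 1 value per array (0.0815), with 1 canonical start per gene (0.0910) and with 5 promoters of either kind per list (0.0744). With 1 canonical start per gene, 37 of the 47 named promoters stayed shared, and Polrmt, Inpp5f, Pde4dip, Kdm2b, BC005537 and Pde4d had 0 lists. Of the 47, 26 stayed shared within 250 bp, 28 at a fold of at least 15 and 36 without batches 3 and 5. In batch 4 only it was 21 and in batch 3 only 14, and under the other alternatives 38 to 47. The causes were not tested. No paired analysis was possible because each KZFP had 1 library. Read depth was not used, so its part in the size of the lists was not tested.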
